A study of Mus musculus with 9 samples.

Results

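Wnt proteins are secreted ligands, and the genes described here are those that make, receive or adjust the Wnt signal. They were chosen by symbol: every protein-coding entry named Wnt, Fzd (Frizzled receptors), Sfrp or Dkk (secreted antagonists), Rspo (R-spondins) or Lgr (their receptors), with Lrp5 and Lrp6, Ror1, Ror2, Ryk, Wls, Axin2 and Wif1. This gave 51 of the 32661 nuclear entries of the count tables: 19 ligands, 10 Frizzled receptors, 2 LRP co-receptors, 3 alternative receptors, 8 secreted antagonists, 7 R-spondin and Lgr genes, the ligand carrier Wls and the feedback gene Axin2.

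Single cells of the mouse ventral midbrain were profiled on 9 plates with SORT-seq, in which single cells are sorted into wells and molecular barcodes are counted per gene by the CEL-seq2 chemistry. All animals carried VGAT-Cre:Ai14 and Pitx3-GFP, so that any cell that has at some time expressed the vesicular GABA transporter gene (Slc32a1, or VGAT) carries tdTomato, and cells with Pitx3, a transcription factor of midbrain dopamine neurons, carry GFP. Of the plates with tdTomato cells, 4 were from embryos (E16.5) and 3 from newborn pups (P0.5), and these are called VGAT plates. Cells that carried GFP as well filled 1 plate at each stage (VGAT+Pitx3 plates). The sample labels write these stages as E16 and P0. Cre records past as well as present expression. Tissue of several litters was used at each stage, and the labels do not tie plates to animals. The p-values of comparisons between plates thus measure the spread between plates, which may be partly technical. Those between Otx2 and Sox6 cells, described last, rest mainly on a spread shared across genes.

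After the cell filter 2035 cells were kept, between 44 and 305 per plate, with summed counts between 1435919 and 5408710 per plate. A gene with 3 counts had between 0.575 and 1.99 CPM (counts scaled to a common library size). The second of the 2 plate labels in the cell names differed in stage or sort for 6 plates, and for 4 of the 7 VGAT plates it gave the other stage. The first was used throughout. With that label, Pitx3 stood at 141 CPM at E16.5 and 74.5 CPM at P0.5 on the VGAT+Pitx3 plates and between 0 and 0.37 CPM on the VGAT plates. The stage of a plate rests on that label alone, with no such check. The plates shared 383 well numbers, and 0 kept wells were identical. Gad1, which encodes a GABA-synthesizing enzyme, was at 13.9 CPM and 9.84 CPM on the VGAT+Pitx3 plates and at 798 CPM or more on every VGAT plate. Gad2, which encodes another such enzyme, went the other way. It was at 898 CPM and 997 CPM on the VGAT+Pitx3 plates and between 494 and 632 CPM on VGAT plates. Slc32a1 had similar levels in both sorts, between 156 and 333 CPM. VGAT P0.5 replicate 2 stood apart in glial markers. The sum of 7 radial glia and astrocyte markers was 414 CPM there and between 11.1 and 21.6 CPM on the other VGAT plates. On the VGAT+Pitx3 plates it was 160 CPM and 147 CPM, most of it from Fabp7, while Gfap was between 0 and 1.28 CPM on every plate. Of the markers of glutamate neurons, Slc17a6 was higher in the VGAT+Pitx3 sort and Slc17a8 was not. Their sum was 103 CPM at E16.5 and 200.3 CPM at P0.5 on the VGAT+Pitx3 plates and between 1.85 and 21.2 CPM on VGAT plates. Slc17a6 gave 102 CPM and 196 CPM of the VGAT+Pitx3 sums. Slc17a8 was at 1.30 CPM and 3.85 CPM there and between 1.29 and 10.5 CPM on VGAT plates. According to the paper, developing dopamine neurons broadly express vGlut2, the product of Slc17a6. Whether the sum reflects separate glutamate neurons was not tested.

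As background, Wnt ligands are loaded for secretion by Wls and bind Frizzled receptors. With Lrp5 or Lrp6 as co-receptor this stabilises beta-catenin, which acts with TCF/LEF factors on genes such as Axin2. Through Ror1, Ror2 or Ryk, ligands such as Wnt5a act without beta-catenin, for example on cell polarity and axon guidance. Sfrp proteins and Wif1 bind the ligands, most Dkk proteins block the LRP co-receptors, and R-spondins with Lgr4, Lgr5 or Lgr6 keep Frizzled receptors at the cell surface. In the ventral midbrain, Wnt ligands are known for their roles in the formation of dopamine neurons.

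The stretches before the start of 4 members are printed. They were taken from 10 members that had a promoter and passed the threshold of a comparison described below. Every one of these 10 with a match to a motif searched is among the 4, so the 4 do not stand for the rest. Fzd1 and Ror1 were lower and Sfrp2 was higher in VGAT+Pitx3 cells, and Wls differed between cell classes. The sequences are from RefSeq (GRCm38.p6), 250 bases up to the annotated start, written 5′ to 3′ on the strand of the gene: Fzd1 at chr5:4758217-4758466 (minus strand), Ror1 at chr4:100095541-100095790, Sfrp2 at chr3:83766071-83766320 and Wls at chr3:159839400-159839649 (plus strand). Capitals mark matches to a bicoid-type motif (TAATCC, the type bound by Pitx and Otx factors) and a GATA motif (AGATAA), read on both strands.
Fzd1: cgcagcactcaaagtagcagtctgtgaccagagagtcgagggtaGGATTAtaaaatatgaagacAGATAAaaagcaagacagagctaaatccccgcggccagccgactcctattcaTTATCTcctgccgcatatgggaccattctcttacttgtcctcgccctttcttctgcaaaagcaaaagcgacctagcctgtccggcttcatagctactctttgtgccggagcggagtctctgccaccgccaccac
Ror1: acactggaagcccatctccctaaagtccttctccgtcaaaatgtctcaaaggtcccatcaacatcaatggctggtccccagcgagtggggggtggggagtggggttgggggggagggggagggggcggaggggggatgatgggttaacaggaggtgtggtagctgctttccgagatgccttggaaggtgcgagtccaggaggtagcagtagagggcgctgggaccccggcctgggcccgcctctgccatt
Sfrp2: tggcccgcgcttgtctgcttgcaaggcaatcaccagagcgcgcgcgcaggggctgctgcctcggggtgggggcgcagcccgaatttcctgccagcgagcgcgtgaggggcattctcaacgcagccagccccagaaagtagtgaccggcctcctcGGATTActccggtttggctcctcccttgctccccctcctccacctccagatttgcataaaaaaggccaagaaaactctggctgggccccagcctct
Wls: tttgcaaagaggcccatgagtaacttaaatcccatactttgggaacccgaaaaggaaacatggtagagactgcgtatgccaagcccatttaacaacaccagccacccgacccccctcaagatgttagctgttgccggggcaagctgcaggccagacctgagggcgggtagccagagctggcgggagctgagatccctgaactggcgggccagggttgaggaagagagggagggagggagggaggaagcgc

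Fzd1 held the bicoid-type letters once, from position 45 on the minus strand, and the GATA letters from positions 65 and 117, counted from 1 at the 5′ end of the printed sequence. Sfrp2 held the bicoid-type letters from position 155 on the minus strand. No motifs overlapped. A motif for Nr4a2 (AAAGGTCA) and one for TCF/LEF (CTTTGAT) were also searched, and neither was found in these 4 windows. The search ran over windows of 300 bases, which reach 50 bases past the start. Among 32851 promoters of that length the bicoid-type letters were in 7.06%, the GATA letters in 11.2%, the Nr4a2 letters in 1.51% and the TCF/LEF letters in 3.73%. The table held promoters of 35 of the 51 members, and of 10 of the 16 members that passed a threshold, of which 8 had no match. A match describes letters and not a binding site.

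Most members were scarce. Wnt10a had 0 counts in all kept cells, 19 members had fewer than 30 counts, and 33 stayed under 10 CPM on every plate. The 18 members that reached 10 CPM on at least 1 plate were spread over all roles. CPM values are per gene and not per length, so levels are compared between plates and not between genes.

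To ask which Wnt genes differ between the VGAT+Pitx3 and VGAT sorts, their plates were compared in a fit that also held a term for stage. No plate held Pitx3 cells without the VGAT label. Whether a difference is particular to cells with both labels or shared by midbrain dopamine neurons at large therefore cannot be told. The ligands Wnt5a and Wnt7b were high in VGAT+Pitx3 cells and near the floor or low in VGAT cells, whereas the receptor genes Fzd1 and Ror1 and the antagonist Sfrp1 were low in VGAT+Pitx3 cells. Cell type markers differed between the same plates. Dopamine markers summed to 5822 and 4506 CPM on the VGAT+Pitx3 plates and to between 116 and 172 CPM on VGAT plates. GABA markers summed to 1132 and 1279 CPM and to between 2343 and 2952 CPM. Gata2, Gata3 and Tal1 among them were at 1.74 CPM or less and at 69.7 CPM or more, while Gad2 went the other way. The part of these markers, or of the glutamate and glial ones, in the differences of the members was not tested. Of 14624 genes tested with edgeR's quasi-likelihood test, 1306 passed an adjusted p of 0.05 (8.93%), 692 higher (4.73%) and 614 lower (4.2%). Of the 51 members, 30 had enough counts to be tested and 13 passed, 8 higher and 5 lower in VGAT+Pitx3 cells. Of these 30, 7 had too few counts for a test on the VGAT plates alone (Wnt7b, Wnt9a, Dkk2, Wnt5b, Rspo4, Fzd2 and Fzd4), and they hold 3 of the 8 members called higher and 0 of those called lower. A gene that enters through the sort in which it is high can hardly come out lower there, so the split of directions is a description only. The same holds for the median log2 fold change of the tested members, which was 0.53, beside -0.00068 over all genes tested. Each stage has 1 VGAT+Pitx3 plate, so a fit without one of them takes the spread from the VGAT plates and assumes that the remaining plate varies like them. Without the one at E16.5, 7 members passed (Dkk3, Fzd1, Lgr4, Ror1, Sfrp1, Wnt5a and Wnt7b), and without the one at P0.5, 8 passed (Dkk3, Fzd1, Ror1, Sfrp1, Sfrp2, Wnt5a, Wnt7a and Wnt7b). A plate sum does not separate fewer cells with a gene from less of its RNA per cell.

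**Figure D1:**
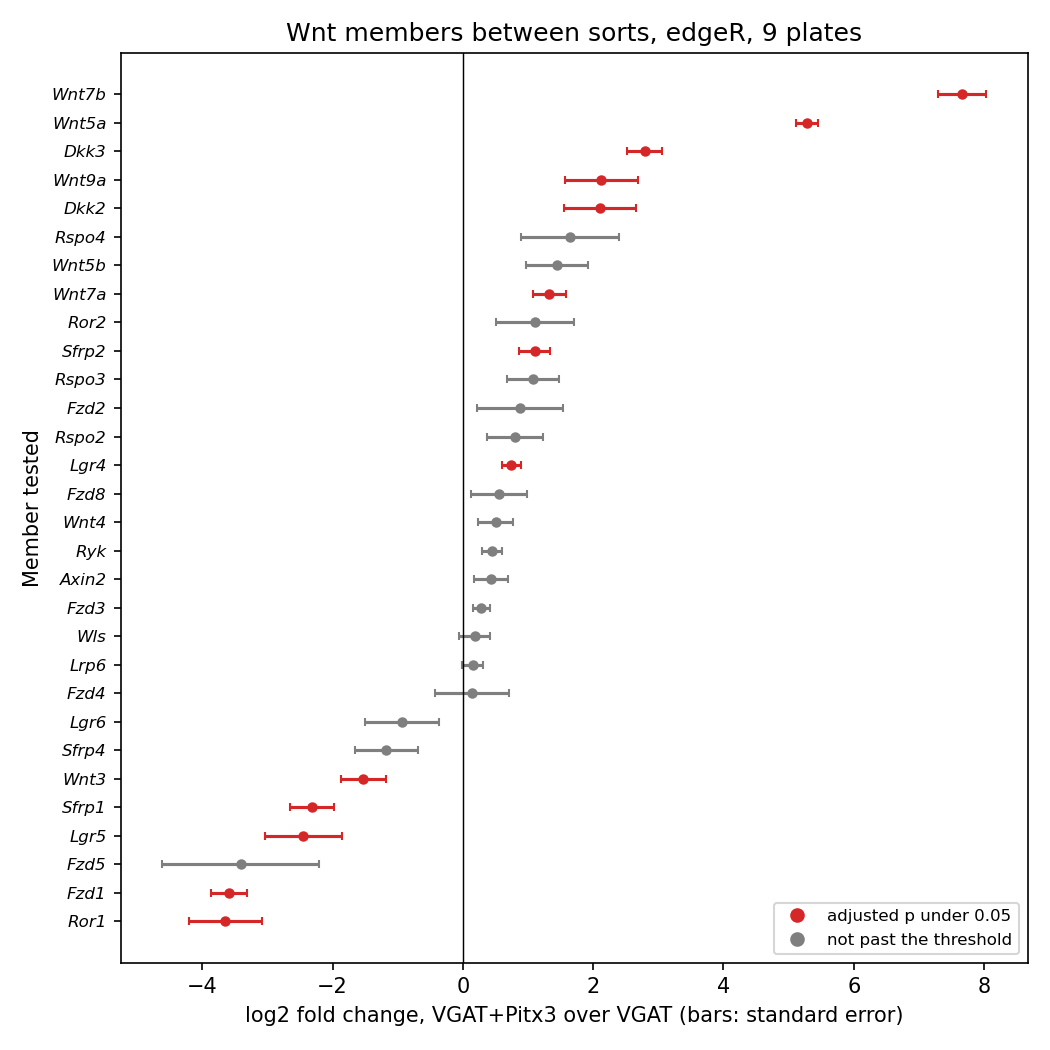
The log2 fold change of each of the 30 members tested, VGAT+Pitx3 over VGAT, with its standard error as the bar, from edgeR over 9 plates; red points have an adjusted p under 0.05. Wnt7b (7.67) and Wnt5a (5.28) lie farthest to the right, and Ror1 (-3.65) and Fzd1 (-3.59) farthest to the left.

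Wnt5a (ENSMUSG00000021994), a ligand best known for signalling without beta-catenin, lies on chromosome 14 from 28504750 to 28527448 in GRCm38. Its level was 310 CPM on the VGAT+Pitx3 plate at E16.5 and 280 CPM on the one at P0.5. On the 7 VGAT plates the lowest level was 5.99, the median 6.63 and the highest 12.1 CPM. The sorts did not overlap, and the log2 fold change was 5.28 with a standard error of 0.17 (edgeR adjusted p = 4.91e-11). Wnt7b (ENSMUSG00000022382), a ligand that can act through beta-catenin, lies on chromosome 15 from 85535437 to 85582473. It was at 194 CPM and 167 CPM on the VGAT+Pitx3 plates, while VGAT plates had between 0 and 4.24 CPM with a median of 0.492 CPM, 22 counts in all. Its log2 fold change of 7.67 (standard error 0.37, edgeR adjusted p = 3.19e-09) rests on those few counts and was between 6.34 and 8.78 over the alternatives. Genes annotated on the opposite strand of Wnt5a and Wnt7b had at most 1 and 9 counts on any plate. The highest VGAT level of Wnt7b was on VGAT P0.5 replicate 2, the plate high in glial markers.

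Among the other ligands, Wnt7a, a close relative of Wnt7b, was at 26.0 and 20.3 CPM on the VGAT+Pitx3 plates and between 5.97 and 12.6 CPM on VGAT plates. Its log2 fold change was 1.33 (standard error 0.25, edgeR adjusted p = 0.00287), and without the E16.5 plate of the VGAT+Pitx3 sort the adjusted p was 0.156. Wnt9a had 2.72 and 3.88 CPM on the VGAT+Pitx3 plates and between 0.292 and 1.33 CPM on VGAT plates, with 39 counts in all. It passed at 2.13 (standard error 0.56, edgeR adjusted p = 0.0266) and not with DESeq2 (adjusted p = 0.055), without VGAT P0.5 replicate 3 (0.0502) or without either VGAT+Pitx3 plate (0.294 without E16.5 and 0.253 without P0.5). Wnt3, a ligand of the beta-catenin branch, was the one ligand that passed in the other direction. It had 2.26 and 3.02 CPM on the VGAT+Pitx3 plates and between 5.97 and 9.65 CPM on VGAT plates, a log2 fold change of -1.53 (standard error 0.34, edgeR adjusted p = 0.00974). With the E16.5 plate of the VGAT+Pitx3 sort left out its adjusted p was 0.186, and without the one at P0.5 it was 0.0645. Of the 7 ligands tested, Wnt4 (0.50, adjusted p = 0.372) and Wnt5b (1.45, adjusted p = 0.0814) did not pass. The 12 ligands with too few counts for the test were at 4.32 CPM or less on every plate.

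**Figure D2:**
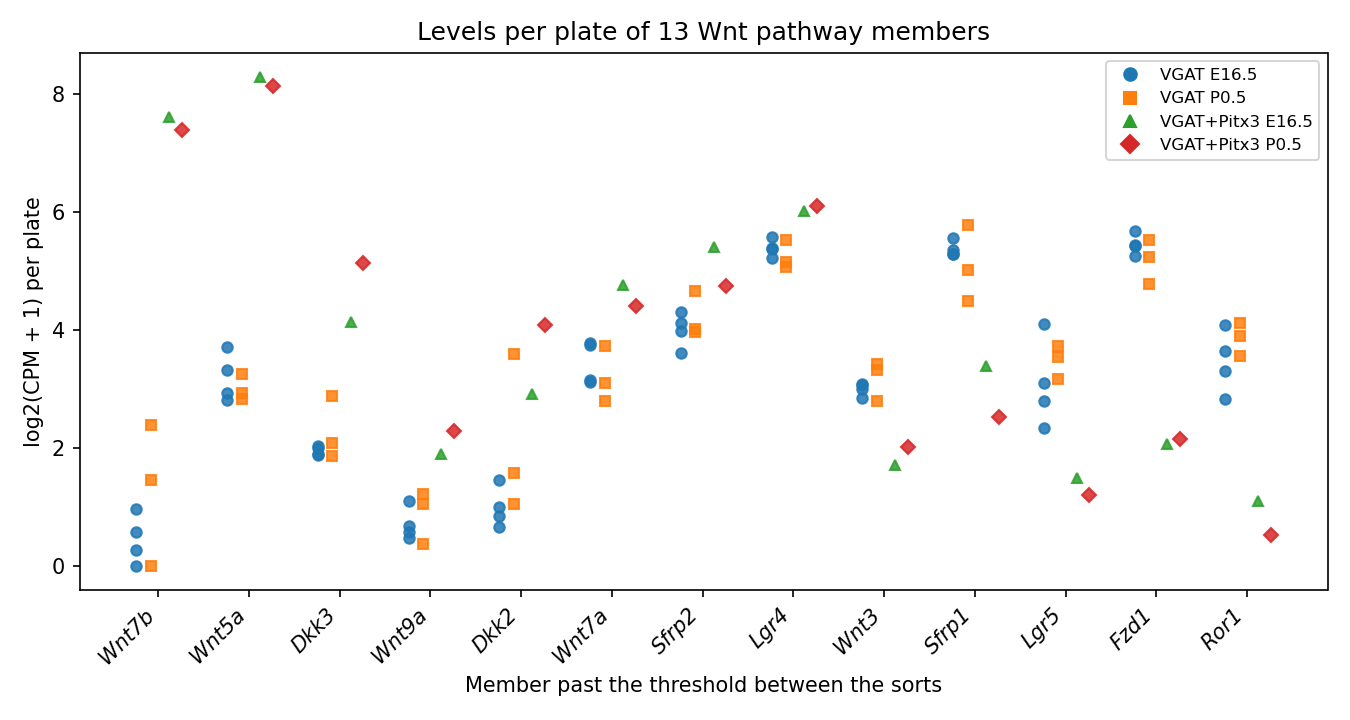
Levels as log2(CPM + 1), 1 point per plate, of the 13 members that passed between the sorts, ordered by fold change, with colour and shape for sort and stage. Wnt5a and Wnt7b are far above the VGAT plates on both VGAT+Pitx3 plates, and Fzd1 and Ror1 far below them; Dkk2 overlaps through VGAT P0.5 replicate 3.

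The share of cells with these ligands was taken from 4000 counts drawn at random per cell, since a deeper cell shows more genes. Wnt5a was found in 62.5% of 299 cells on the VGAT+Pitx3 plate at E16.5 (95% exact interval 56.8% to 68.0%) and in 66.7% of 249 cells on the one at P0.5 (60.4% to 72.5%). On VGAT plates the share was 2.68% ± 0.85 (SD, n = 7). Wnt7b was found in 43.5% (37.8% to 49.3%) and 41.8% (35.6% to 48.2%) of the cells of the VGAT+Pitx3 plates and in 0.394% ± 0.528 of cells on VGAT plates (SD, n = 7). Without thinning, the mean shares of Wnt5a were 86.7% and 9.81% in the 2 sorts, and those of Wnt7b 62.4% and 1.24%. The intervals cover counting error only, and the shares were not tested, as the smallest two-sided p of an exact permutation test of 7 against 2 plates is 0.0556.

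Many cells held both ligands. Both were found in 31.1% (25.9% to 36.7%) of cells on the VGAT+Pitx3 plate at E16.5 and in 32.1% (26.4% to 38.3%) at P0.5. At E16.5 Wnt7b was found in 49.7% of cells with Wnt5a (42.4% to 57.1%) and in 33.0% of cells without it (24.4% to 42.6%), and at P0.5 in 48.2% (40.4% to 56.1%) and 28.9% (19.5% to 39.9%). On VGAT plates 1 cell held both. At least 1 of the 19 ligands was found in 78.3% and 82.7% of VGAT+Pitx3 cells and in 9.84% to 26.0% of the cells of a VGAT plate. A ligand and a Frizzled receptor were found together in 40.5% and 28.5% of VGAT+Pitx3 cells and in 4.36% to 11.2% on VGAT plates, while any Frizzled receptor was found in 51.2% and 34.5% and in 34.9% to 59.0%.

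**Figure D3:**
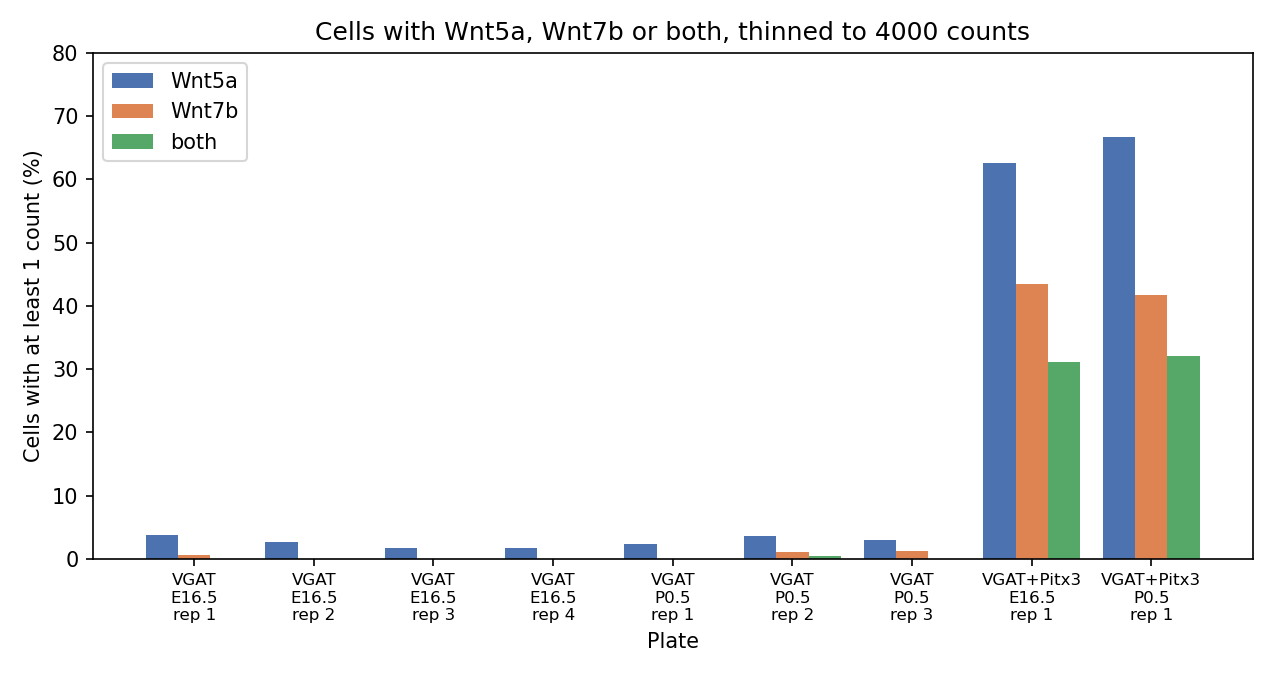
Bars give the percentage of cells with at least 1 count of Wnt5a, of Wnt7b or of both after thinning to 4000 counts, 1 group of bars per plate. On the VGAT+Pitx3 plates 62.5% and 66.7% of cells have Wnt5a and 31.1% and 32.1% have both; on every VGAT plate each share is under 4%.

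Wls, the carrier needed for secretion of the ligands, was at 26.9 and 28.9 CPM on the VGAT+Pitx3 plates and between 12.6 and 34.6 CPM on VGAT plates. The sorts overlapped, and the log2 fold change was 0.18 with a standard error of 0.24 (edgeR adjusted p = 0.797).

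Of the Frizzled receptors, the cell-surface receptors of Wnt ligands, 6 were tested and Fzd1 passed. Fzd1 (ENSMUSG00000044674, chromosome 5 from 4753839 to 4758035, minus strand) was at 3.17 and 3.45 CPM on the VGAT+Pitx3 plates and between 26.5 and 50.0 CPM on VGAT plates with a median of 41.9 CPM. The sorts did not overlap (log2 fold change -3.59, standard error 0.28, edgeR adjusted p = 6.63e-07). It was found in 1.67% ± 0.474 of VGAT+Pitx3 cells (SD, n = 2) and 14.2% ± 3.18 of VGAT cells (SD, n = 7). Fzd3, a receptor known from axon guidance, was at 170 and 103 CPM on the VGAT+Pitx3 plates and between 76.8 and 151 CPM on VGAT plates, and did not pass (0.28, edgeR adjusted p = 0.269). Fzd2, Fzd4, Fzd5 and Fzd8 were tested and did not pass. Fzd5 had 1 count on the VGAT+Pitx3 plates and 48 counts on the VGAT plates (edgeR adjusted p = 0.114). Fzd6, Fzd7, Fzd9 and Fzd10 were not tested and were at 3.71 CPM or less on every plate.

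The co-receptor Lrp6 overlapped between the sorts, with 91.9 and 107 CPM on the VGAT+Pitx3 plates and between 69.9 and 114 CPM on VGAT plates (0.15, standard error 0.16, edgeR adjusted p = 0.747). Lrp5, its relative, was at 2.81 CPM or less and not tested. Among the alternative receptors, Ror1, a receptor tyrosine kinase-like protein that binds Wnt5a, was at 1.13 and 0.432 CPM on the VGAT+Pitx3 plates, 6 counts in all, and between 6.13 and 16.4 CPM on VGAT plates. Its log2 fold change was -3.65 with a standard error of 0.55 (edgeR adjusted p = 0.000409). Only 6.64% of the Ror1 counts were exonic (20 of 301), and with exonic counts alone Ror1 had too few to be tested. Ror2 had 2.49 and 8.63 CPM on the VGAT+Pitx3 plates and between 0.585 and 4.21 CPM on VGAT plates and did not pass (1.11, edgeR adjusted p = 0.38). Ryk, a receptor known for repelling axons in response to Wnt5a, was at 64.3 and 59.98 CPM on the VGAT+Pitx3 plates and between 31.8 and 54.3 CPM on VGAT plates. Although the sorts did not overlap, Ryk did not pass (0.45, standard error 0.16, edgeR adjusted p = 0.11), and it passed with exonic counts (adjusted p = 0.0382) and without VGAT P0.5 replicate 1 (0.0381).

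Secreted antagonists moved in both directions. Sfrp1, which binds Wnt ligands outside the cell, was at 9.51 and 4.75 CPM on the VGAT+Pitx3 plates and between 21.3 and 54.0 CPM on VGAT plates, and the sorts did not overlap (-2.31, standard error 0.34, edgeR adjusted p = 0.000319). Its relative Sfrp2 was at 41.2 and 25.9 CPM and between 11.2 and 24.4 CPM. It passed at 1.10 (standard error 0.24, edgeR adjusted p = 0.00757), and at 0.55 without the E16.5 plate of the VGAT+Pitx3 sort it did not (0.535). On the opposite strand of Sfrp2 lies Gm26771, which had between 6 and 32 counts per plate, and whether counting used the strand is not stated. The highest VGAT levels of both Sfrp1 and Sfrp2 were on VGAT P0.5 replicate 2, and without that plate both passed. The share of these Sfrp levels that comes from glial cells was not tested.

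Dkk3, a divergent member of the Dkk family, was at 16.53 and 34.1 CPM on the VGAT+Pitx3 plates and between 2.65 and 6.36 CPM on VGAT plates, and its log2 fold change was 2.79 (standard error 0.27, edgeR adjusted p = 5.62e-06). Dkk2, which binds Lrp6, was at 6.57 and 15.97 CPM on the VGAT+Pitx3 plates and, on VGAT plates, between 0.575 and 1.99 CPM apart from 11.1 CPM on VGAT P0.5 replicate 3. It passed at 2.11 (standard error 0.55, edgeR adjusted p = 0.0255) but not without the E16.5 plate of the VGAT+Pitx3 sort (0.377) or at P0.5 (0.0916), and 28.7% of its counts were exonic. Sfrp4 did not pass (-1.18, edgeR adjusted p = 0.201). Dkk1, Sfrp5 and Wif1 were at 2.87 CPM or less on every plate and were not tested.

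Lgr4 and Lgr5, receptors of R-spondins, differed in opposite directions. Lgr4 was at 63.6 and 67.3 CPM on the VGAT+Pitx3 plates and between 32.3 and 46.6 CPM on VGAT plates (0.75, standard error 0.14, edgeR adjusted p = 0.00333; 0.0853 without the P0.5 plate of the VGAT+Pitx3 sort). Lgr5 was at 1.81 and 1.29 CPM and between 4.02 and 16.1 CPM (-2.45, standard error 0.59, edgeR adjusted p = 0.0155). With either VGAT+Pitx3 plate left out the adjusted p of Lgr5 was 0.151 or 0.152. Neither receptor overlapped between the sorts. Lgr6 and 3 of the R-spondins (Rspo2, Rspo3 and Rspo4) were tested and did not pass, and Rspo1 was not tested. No R-spondin was above 5.89 CPM on any plate.

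Axin2, a direct target of the beta-catenin branch that limits it, was at 13.8 and 14.7 CPM on the VGAT+Pitx3 plates and between 7.30 and 14.9 CPM on VGAT plates. The sorts overlapped (0.43, standard error 0.26, edgeR adjusted p = 0.443). Of a list of 44 other genes of the pathway, 37 were tested, of which 1 was higher and 4 were lower in VGAT+Pitx3 cells, beside 4.73% and 4.2% of all genes tested. Tcf7l2, a nuclear partner of beta-catenin, was at 7.25 and 7.77 CPM and between 146 and 604 CPM (-5.68, edgeR adjusted p = 2.71e-07). Its relative Lef1 had 0.906 and 0 CPM and between 1.55 and 15.9 CPM (-3.54, edgeR adjusted p = 0.0365). The target gene Sp5 had 0 and 0.432 CPM, where 3 counts are not reached, and between 0.739 and 5.55 CPM on VGAT plates (-4.08, edgeR adjusted p = 0.0424). The antagonist Sostdc1 had 1.36 and 2.16 CPM and between 2.65 and 10.6 CPM (-1.77, edgeR adjusted p = 0.0471). The calls of Lef1, Sp5 and Sostdc1 were lost in 5, 7 and 9 of 16 alternatives, with either VGAT+Pitx3 plate left out among them (adjusted p between 0.108 and 0.395). Those of Tcf7l2 and of Prickle2, a planar polarity gene that was higher (1.01, edgeR adjusted p = 1.8e-05), were kept in all 16. The median of the list was 0.13.

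Whether Wnt genes changed around birth was asked on the 7 VGAT plates, where both stages have replicates. Wnt4 was higher and Fzd3 lower at P0.5, and the other members tested did not pass. Of 13639 genes tested with edgeR, 624 passed (4.58%), 387 higher (2.84%) and 237 lower (1.74%) at P0.5. Of the 51 members 23 were tested, and 2 of these passed, 1 in each direction. These counts rest on single plates: 76 genes and 0 members passed without VGAT P0.5 replicate 3, and 265, 92, 130 and 162 genes without VGAT E16.5 replicates 1, 3 and 4 and VGAT P0.5 replicate 2. The members' median log2 fold change was -0.064, and that of all genes 0.016. With 2 calls the members are not set apart from that background. By the second label in the cell names 4 of these 7 plates would belong to the other stage.

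Wnt4 (ENSMUSG00000036856, chromosome 4 from 137277489 to 137299726), a ligand, was at 4.92, 10.2, 8.32 and 6.02 CPM on the 4 plates at E16.5 and at 15.3, 21.2 and 30.1 CPM on the 3 plates at P0.5. The stages did not overlap, and the log2 fold change was 1.68 with a standard error of 0.28 (edgeR adjusted p = 0.0114). Without VGAT P0.5 replicate 3, the plate with the highest level, it was 1.38 and did not pass (adjusted p = 0.075). On the VGAT+Pitx3 plates Wnt4 was at 11.3 CPM at E16.5 and 29.3 CPM at P0.5.

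Fzd3 (ENSMUSG00000007989, chromosome 14 from 65192449 to 65262463, minus strand) was at 151, 121, 137 and 129 CPM at E16.5 and at 97.5, 76.8 and 101 CPM at P0.5 (-0.49, standard error 0.13, edgeR adjusted p = 0.0475). The stages did not overlap, but the call was lost in 10 of 16 alternatives, 6 of them with a single plate left out. On the VGAT+Pitx3 plates Fzd3 was at 170 CPM at E16.5 and 103 CPM at P0.5. Wls was at 25.9, 28.7, 34.6 and 32.7 CPM at E16.5 and at 12.6, 27.0 and 17.3 CPM at P0.5, which overlapped, and did not pass (-0.62, standard error 0.23, edgeR adjusted p = 0.119). Without VGAT P0.5 replicate 2, the plate high in glial markers, the log2 fold change of Wls was -0.95 (adjusted p = 0.0494). It also passed without the filter on low counts (-0.70, adjusted p = 0.0155) and with at least 4000 genes per cell (-1.04, adjusted p = 0.0323), and in the other 13 alternatives it did not. Axin2 stood between 9.86 and 14.9 CPM on the E16.5 plates and between 7.30 and 10.1 CPM on the P0.5 plates and did not pass (-0.56, edgeR adjusted p = 0.214). Of the 44 other genes of the pathway 35 were tested and 1 passed, beside 4.58% of all genes, 1.74% lower. This was Tcf7l2, at -1.16 (edgeR adjusted p = 0.0178), and its call was lost in 4 of 16 alternatives (highest adjusted p = 0.0525), among them without VGAT E16.5 replicate 3 or 4 or VGAT P0.5 replicate 2.

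**Figure D4:**
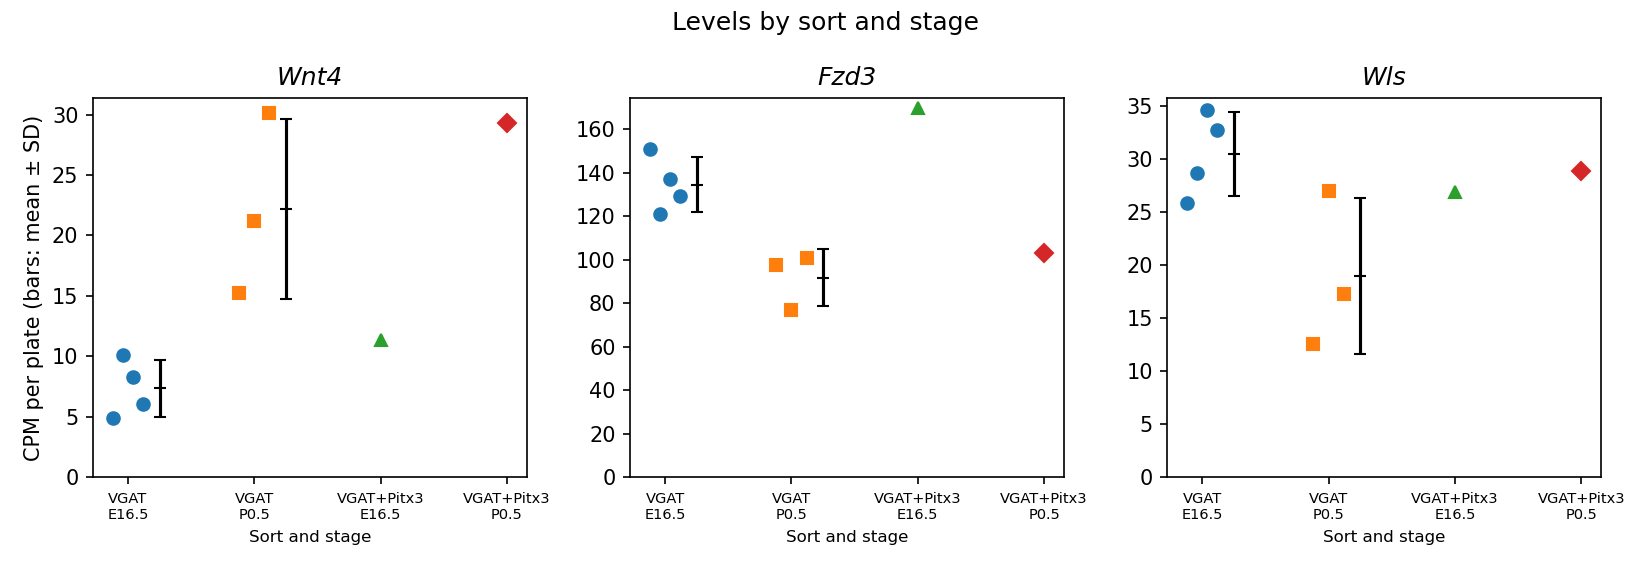
CPM of Wnt4, Fzd3 and Wls, 1 point per plate, by sort and stage, with mean ± SD for the VGAT groups (n = 4 and n = 3). Wnt4 is higher and Fzd3 lower on all VGAT plates at P0.5 than at E16.5, whereas Wls overlaps between stages.

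The difference between the stage effects of the 2 sorts was tested with an interaction over all 9 plates, in which each VGAT+Pitx3 plate was taken to vary as VGAT plates do. EdgeR called 0 of 15724 genes (0%) and 0 of 36 members. At an unadjusted p under 0.05 there were 998 genes and 2 members, Wnt7b (-2.44) and Ror2 (2.64), each with an adjusted p of 0.773. DESeq2 called 3 genes and 0 members.

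Cells were then compared within VGAT plates by 1 of 3 class markers. Six3 and Pax5 mark neurons of the substantia nigra pars reticulata. Otx2 is known from the ventral tegmental area. The paper also places it in the midbrain reticular formation and the caudal interpeduncular nucleus, so the Otx2 class is not a class of the ventral tegmental area alone. A cell belonged to a class with 1 count or more of its marker and 0 counts of the other 2. The sums were fitted with the plate as a block and without the markers themselves. On average Wls and Fzd1 were highest in Otx2 cells. Of 8400 genes, 327 passed between Otx2 and Pax5 cells (3.89%; 2.04% higher and 1.86% lower in Otx2 cells). Between Otx2 and Six3 cells 198 passed (2.36%; 1.6% higher and 0.762% lower in Otx2 cells), and between Six3 and Pax5 cells 173 (2.06%; 0.952% higher and 1.11% lower in Six3 cells). Only 7 members were tested, and in each comparison with Otx2 cells 2 of them passed, Wls and Fzd1, both higher in Otx2 cells. No ligand had enough counts. The Otx2 sums held between 1 and 40 cells per plate and the Pax5 sums between 4 and 58, so that single plates are imprecise.

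Wls (ENSMUSG00000028173, chromosome 3 from 159839672 to 159938664) was at 73.5, 88.0, 59.2 and 73.2 CPM in Otx2 cells of the 4 plates at E16.5 and at 126 and 99.8 CPM on VGAT P0.5 replicates 2 and 3. The remaining plate, with 1 Otx2 cell, had 0 counts. In Six3 cells it was between 0 and 19.5 CPM and in Pax5 cells between 0 and 14.4 CPM. Otx2 cells were above both other classes on every plate but that one. The log2 fold change of Otx2 cells was 3.64 over Pax5 cells (standard error 0.37, edgeR adjusted p = 1.5e-06) and 2.73 over Six3 cells (standard error 0.28, edgeR adjusted p = 1.45e-06). Other markers moved with the Otx2 class. Pan-neuronal markers summed to between 2719 and 4195 CPM in Otx2 cells, 4045 and 5395 CPM in those with Six3 and 3923 and 5866 CPM in those with Pax5, and were lowest in Otx2 cells on all 7 plates. GABA markers were lower in Otx2 than in Six3 cells on all 7 plates. Their part in the differences of Wls and Fzd1 was not tested. On VGAT P0.5 replicate 2 the glial markers summed to 776 CPM in Otx2 cells, 591 CPM in those with Six3 and 76.5 CPM in those with Pax5, and without that plate Wls and Fzd1 passed both comparisons.

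In Otx2 cells the lowest level of Fzd1 was 0, the median 81.9 and the highest 156 CPM. The Six3 sums had a median of 42.0 CPM (18.5 to 46.4) and the Pax5 sums one of 25.1 CPM (0 to 63.7), so the classes overlapped. Otx2 cells were higher than Pax5 cells on 6 of 7 plates (1.64, standard error 0.36, edgeR adjusted p = 0.00669) and higher than Six3 cells on 5 of 7 plates (1.12, standard error 0.29, edgeR adjusted p = 0.0397). The first call was lost without VGAT E16.5 replicate 2 (0.0946). The second was lost with DESeq2 (0.0891), without the plate block (0.056) and when any of VGAT E16.5 replicates 1 (0.0968), 2 (0.286), 3 (0.129) or 4 (0.076) or VGAT P0.5 replicate 3 (0.0688) was left out. Between Six3 and Pax5 cells edgeR and DESeq2 called 0 members, and 3 had an unadjusted p under 0.05 in edgeR: Sfrp1 (0.77), Wls (0.91) and Lgr4 (-0.44).

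In VGAT+Pitx3 cells, those with Otx2 were compared with those with Sox6 on the 2 plates. Otx2 is used as a marker of ventral tegmental dopamine neurons and Sox6 as one of nigral ones. The paper reports, however, that Otx2 cells mostly lacked tyrosine hydroxylase, an enzyme of dopamine synthesis. The sums held 27 and 26 Otx2 cells and 109 and 45 Sox6 cells. Of 7670 genes edgeR called 482 (6.28%), of which 266 were higher (3.47%) and 216 lower (2.82%) in Otx2 cells, and of 9 members tested it called 4: Wnt7b, Wnt5a and Wls higher and Lgr4 lower in Otx2 cells. DESeq2 called 0 of the members and 130 genes, and without the plate as a block edgeR called 0 members, so these 4 calls rest on the choice of test. With 2 plates and a plate block, hardly any residual degrees of freedom are left. The p-values of edgeR here rest mainly on a spread shared across genes and not on the spread between these plates.

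Wnt7b was at 190 CPM in Otx2 cells and 104 CPM in Sox6 cells at E16.5, and at 164 and 76.8 CPM at P0.5 (1.04, standard error 0.24, edgeR adjusted p = 0.000461; 0.557 with DESeq2). Wnt5a was at 320 and 211 CPM at E16.5 and at 241 and 168 CPM at P0.5 (0.66, standard error 0.20, edgeR adjusted p = 0.0162). Its call was also lost without the filter on low counts (0.178), with at least 4000 genes per cell (0.401) and without cells over 2 times the plate median (0.164). Both ligands were detected in both classes on both plates. Wls was at 63.4 and 12.7 CPM at E16.5 and at 33.7 and 27.0 CPM at P0.5, where the Otx2 sum held 7 counts (1.70, standard error 0.48, edgeR adjusted p = 0.00736). Lgr4 was at 19.3 and 81.6 CPM at E16.5 and at 43.4 and 104 CPM at P0.5 (-1.58, standard error 0.38, edgeR adjusted p = 0.000775), and with exonic counts its adjusted p was 0.184. Other markers moved with these classes. The GABA markers summed to 1359 and 1210 CPM in Otx2 cells and to 361 and 309 CPM in Sox6 cells, and the dopamine markers to 4826 and 5018 CPM in Otx2 cells and to 9705 and 8872 CPM in Sox6 cells. The sum of 2 glutamate markers was 174 and 202 CPM in Otx2 cells and 26.5 and 72.7 CPM in Sox6 cells. The glial sum was 13.8 and 28.9 CPM in Otx2 cells and 18.0 and 276 CPM in Sox6 cells. Their part in the differences was not tested.

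**Figure D5:**
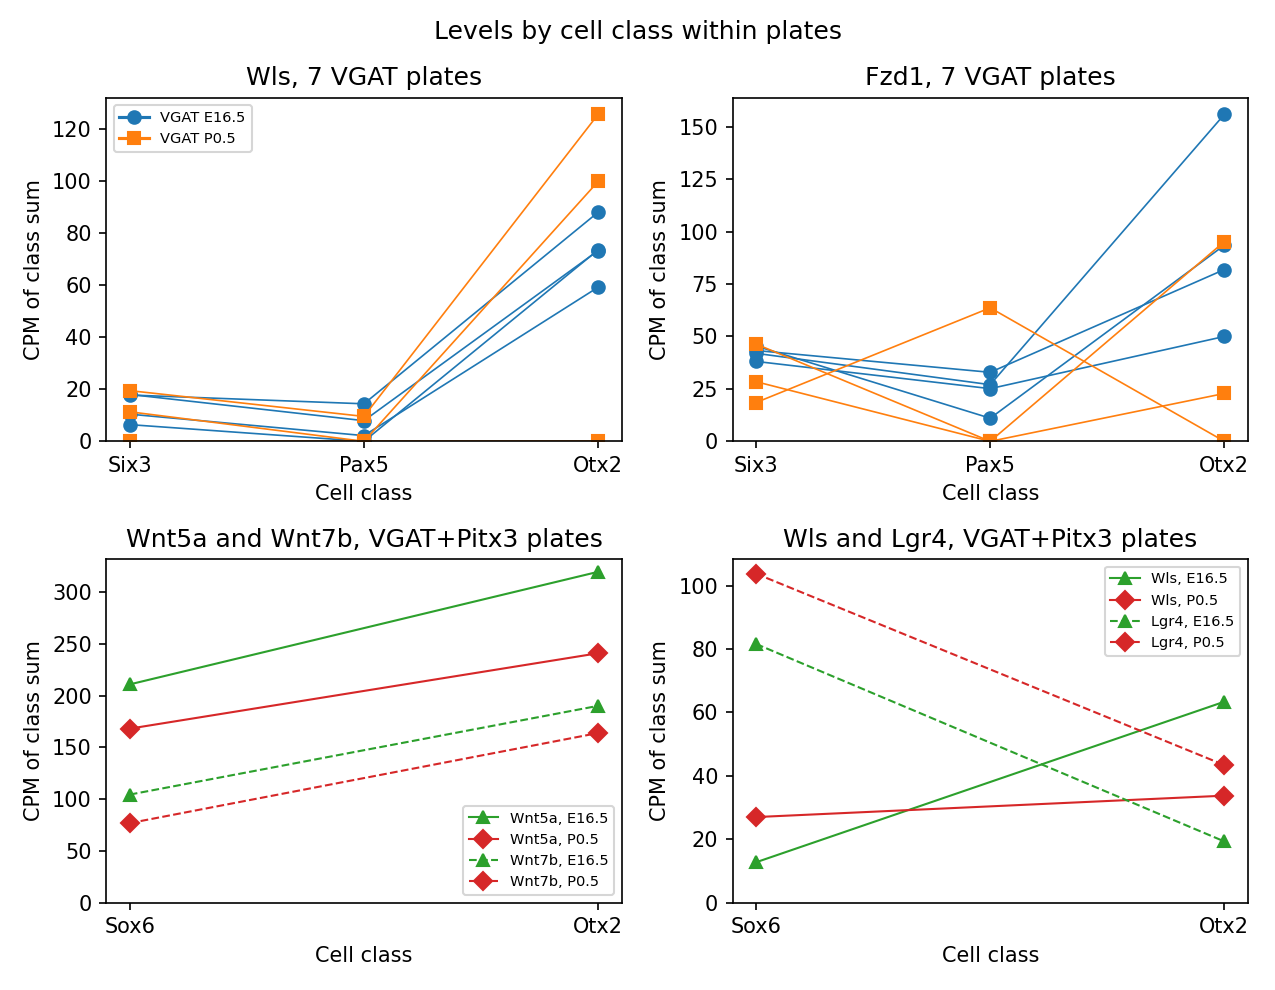
CPM of class sums, with a line joining the classes of a plate. Above, Wls and Fzd1 in Six3, Pax5 and Otx2 cells of the 7 VGAT plates (VGAT P0.5 replicate 1 has 1 Otx2 cell); below, Wnt5a, Wnt7b, Wls and Lgr4 in Sox6 and Otx2 cells of the 2 VGAT+Pitx3 plates, where Lgr4 falls and the others rise from Sox6 to Otx2 cells.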

How the data were processed

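Sorted cells of 9 plates were sequenced with SORT-seq. According to the methods and labels, reads were aligned with STAR to GRCm38 (mm10) with Ensembl gene models, and exonic and intronic reads were counted. The values deposited by the authors are expected counts, which are distinct molecular barcodes in each well that the authors corrected for chance sharing and did not scale to depth. The labels give barcodes of 6 bases and the methods 4. Of the non-zero values 100% fell within 0.001 of what the 6-base correction gives. Strandedness is not given in the sources used here. Exonic and intronic counts together were used unless stated.

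A well was kept if it had 2000 genes or more, no more than 50000 counts and under 15% mitochondrial counts (2035 of 3455 wells). Spike-in and mitochondrial entries were dropped. Sums per plate, or per plate and cell class, were rounded and tested in edgeR 4.0.16 (R 4.3.3) by the quasi-likelihood method, after filterByExpr and TMM scaling, with Benjamini-Hochberg adjustment over all genes tested and a threshold of 0.05. CPM values include TMM factors, except the cell type markers and their sums per plate (dopamine, GABA, glutamate and glial markers), which are per total count. Standard errors were derived from the fitted change and its F statistic. Shares are from cells thinned to 4000 counts (shallower cells left out) with exact Clopper-Pearson intervals. No doublet caller was run, and leaving out the 123 cells over 2 times their plate's median was an alternative. Plate totals ranged from 1435919 to 5408710, and 3 counts equal 0.575 to 1.99 CPM with TMM factors. Other alternatives were DESeq2 1.42.0, RLE factors, no filter on low counts, exonic counts, other cell filters and thinning, each plate left out, and other blocks. Python 3.11.15 was used with numpy 2.4.6, pandas 2.3.3, scipy 1.17.1 and, for figures, matplotlib 3.10.9.

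Levels are given for members past the threshold in a comparison, the 10 with the highest mean CPM, Axin2 and Wls. Further members are named after their values were seen, to account for the list, and other pathway genes where they passed between stages or sorts. The members and lists were chosen with earlier results of these data known.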

Additional observations from a re-analysis of the deposited data

Results flagged for a closer look

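Among the 7 VGAT plates, the levels of 3 members had a single plate far from the others by Dixon's 95% limit, out of 38 groups of plates looked at, and chance gives such a flag in about 1 in 20 groups. Dkk2 was at 11.1 CPM on VGAT P0.5 replicate 3, where the other VGAT plates were at 1.99 CPM or less. Dkk3 was at 6.36 CPM on VGAT P0.5 replicate 2, against 3.22 CPM or less on the others. Wnt7b was at 4.24 CPM on VGAT P0.5 replicate 2, against 1.75 CPM or less on the others. VGAT P0.5 replicate 2 is also the plate whose glial markers summed to 414 CPM.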

How the results depend on the processing

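Over all alternatives of the named genes, 658 of 739 log2 fold changes kept their direction and their side of the threshold, 69 kept the direction and lost the call, 5 gained it and 7 changed direction, none of them past the threshold in either fit. Between stages these were Lgr4 (-0.064; 0.021 with exonic counts, and -0.23 to 0.0045 with a plate left out), Sfrp1 (-0.16; -0.66 to 0.16 with a plate left out), Sfrp2 (0.29; -0.0033 to 0.45) and Wnt5a (-0.20; -0.37 to 0.021). Between sorts they were Lrp6 (0.15; -0.10 to 0.40) and Wls (0.18; -0.17 to 0.62). Those of Lgr4 and Sfrp2 came without VGAT P0.5 replicate 2, that of Sfrp1 without VGAT P0.5 replicate 3, that of Wnt5a without VGAT E16.5 replicate 1, and those of Lrp6 and Wls without the P0.5 plate of the VGAT+Pitx3 sort. Between stages, 2 members were called in the main analysis, 6 without the filter on low counts, 1 with exonic counts, 1 without cells over 2 times the plate median and between 0 and 2 with a plate left out (0 without VGAT P0.5 replicate 3, which also took the number of genes called from 624 to 76). With the replicate block 1 member (Wnt4) and 202 genes were called, but the replicate numbers do not pair plates: same-numbered plates correlated at 0.045, 0.046 and 0.0084 in their deviations from the stage means. Between sorts 13 members were called, and between 7 and 14 with a plate left out. The interaction went from 0 to 1 member (Wnt7b) without the filter, and Six3 against Pax5 cells from 0 to 2 (Ror1 and Wnt7a). Otx2 against Pax5 cells gave 2 members, 5 without the filter, 1 (Fzd1) without the plate block and 1 or 2 with a plate left out. Otx2 against Six3 cells gave 2, and 1 with DESeq2, 0 without the plate block and 1 or 2 with a plate left out. Without the block Wls did not pass the filter on low counts in either comparison and was not tested, so its call was not lost there. Class sums of 10 cells or more, added after seeing the data, kept Wls and Fzd1 in both. Otx2 against Sox6 cells gave 4, and 0 with DESeq2, 2 with exonic counts, 2 with at least 4000 genes per cell and 0 without the plate block, and could not be fitted with a plate left out. Wls was not tested here with exonic counts or with at least 4000 genes per cell. The number of genes called moved most between stages, from 624 to 944 with DESeq2, 1588 without the filter and 971 with all 9 plates. Between sorts it fell from 1306 to 625 and 866 without the E16.5 and P0.5 plates of the VGAT+Pitx3 sort in turn. For Six3 against Pax5, Otx2 against Pax5 and Otx2 against Six3 cells (173, 327 and 198) it was 466, 570 and 490 without the filter, 79, 157 and 103 without the plate block, 85, 196 and 99 without VGAT E16.5 replicate 3 and 106, 172 and 83 without replicate 4. The causes were not tested. The share of VGAT cells with Wnt5a was 2.68%, and 5.03% thinned to 8000 counts, 9.81% unthinned and 0.326% at 2 counts or more. In VGAT+Pitx3 cells it was 64.6%, 83.6%, 86.7% and 35.3%. For Wnt7b it was 0.394% in VGAT cells and 1.24% unthinned, and in VGAT+Pitx3 cells 42.6%, 56.8%, 62.4% and 20.3%. Members under 1.99 CPM are not resolved on the shallowest plate.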
